A study of Mus musculus with 40 samples.

Results

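F-box proteins are the substrate-recognising subunits of a class of ubiquitin ligases, and their transcripts were followed here through the growth of the mouse oocyte. The members were the probe sets of both array tables whose single platform gene symbol began with Fbxl, Fbxo or Fbxw and a digit, with Fbxo5 and Fbxo43 left out. The rule used names alone and no measured value. It gave 113 probe sets of 45037 (56 on the 430A array and 57 on the 430B array), which stand for 65 genes. By family these were 10 Fbxw genes of the rodent oocyte type, 8 conserved Fbxw genes, 17 Fbxl genes, 5 Fbxo genes of the glycoprotein-binding branch and 25 other Fbxo genes. The 17 include Fbxl12os, by its name an opposite-strand transcript of Fbxl12 and not a gene for an F-box protein. Its signal was too low for it to be tested. A further 2 F-box probe sets carried several symbols and were left out.

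An F-box protein binds the adaptor Skp1 through its F-box and holds a substrate with the rest of its chain. Skp1 docks on the scaffold Cul1, whose other end carries a RING protein that recruits the ubiquitin-loaded E2 enzyme. The complex is called SCF, it is switched on when the ubiquitin-like protein Nedd8 is attached to the cullin, and the F-box subunit decides which protein is degraded. Fbxw proteins hold substrates with WD40 repeats, Fbxl proteins with leucine-rich repeats and Fbxo proteins with other domains. Rodents carry an expanded group of Fbxw genes on mouse chromosome 9 that is known for transcripts in oocytes, whereas Fbxw7, Fbxw11 and the other conserved genes are shared by vertebrates. A growing oocyte stores transcripts and proteins for the meiotic divisions and the early embryo, and protein degradation times meiotic arrest and its release.

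The study measured oocytes isolated from the ovaries of SJLB6 female mice at 5 follicle stages, on 2 Affymetrix array types with 4 samples per stage on each (20 arrays per type, 40 samples). Primordial follicle oocytes came from mice of 2 days (400 oocytes per sample) and primary follicle oocytes from 6 days (90 oocytes). Secondary follicle oocytes came from 12 days (60 oocytes), small antral from 17 days (30 oocytes) and large antral from 24 days (20 oocytes). No sample was treated, and stage, age and the number of oocytes pooled changed together, so they cannot be told apart. The labels do not say whether replicates came from separate mice, so the tests measure the spread between these samples, which may be technical. The extraction labels of 3 of the 4 small antral 430B samples give 12 days and 60 oocytes, those of the secondary stage, while their titles give small antral.

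Values are Affymetrix signals in arbitrary units, scaled so that each array had a 2% trimmed mean of 500. A signal is set by a probe set's own chemistry, so levels are compared between stages of 1 gene and never between genes. Equal scaling of arrays also hides any change in total RNA per oocyte, and less RNA per cell cannot be told apart from fewer cells that hold a transcript. Between 57.4% and 77.9% of the probe sets of an array reached a signal of 100. All 12 oocyte markers were detected in every stage, at unequal levels over the stages. Zp3, a zona pellucida gene, lay between 9988 and 28128 and Dppa3 between 8580 and 15940. Bmp15 lay at 107 to 267 in primordial samples and at 901 or more afterwards, while Ddx4 and Figla went down to 417 to 828 and 562 to 694 in large antral samples. The summed signal of 8 granulosa cell markers tested on 430A was 899 to 1219 in primordial, 1308 to 1604 in primary and 1922 to 2240 in secondary samples. It was 2153 to 2483 in small antral and 2727 to 2938 in large antral samples. The genes of this list did not move alike. Nr5a2 lay at 71.4 to 260.3 in primordial and 937.8 to 1082.7 in secondary samples. Gja1 lay at 42.3 to 97.2 in primary and 769.1 to 861.3 in large antral samples. Fshr stayed between 138.6 and 228.0 and Kitl between 98.9 and 298.8 in all stages.

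Deposited primordial replicates 2 to 4 each had the form of a mean of another array and replicate 1. Doubling the value and subtracting replicate 1, here called unmixing, gave no value below 0 by more than 0.02. This leaves out 100 probe sets of 430A, set aside because their values in stages other than primordial were not rounded like the rest. Their primordial values played no part in that choice. The same arithmetic on 48 ordered pairs of other replicates gave between 1120 and 3790 negative values. Primordial samples are therefore not independent, every change from primordial to primary is given as deposited and unmixed, and the words rose and fell are used for it only where both passed the test. Scaling also bears on this step, since the median change of all 430B probe sets was -0.23 on the log2 scale with the trimmed mean and 0.06 when the median signal of every array was set equal (-0.08 and 0.07 on 430A).

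Of the 113 members, 95 reached a signal of 100 in at least 4 of the 20 arrays and were tested (44 of 56 on 430A, 51 of 57 on 430B), and 18 were not. A single tested member reached 100 in 1 stage alone. Each gene is described by 1 probe set, that of the highest mean on 430A or, where none was tested there, on 430B, and 58 of 65 genes had such a probe set. All 10 oocyte Fbxw genes and all 8 conserved Fbxw genes did, as did 13 of 17 Fbxl, 3 of 5 glycoprotein-binding and 24 of 25 other Fbxo genes. Changes are log2 differences of (signal + 32) between stage means with standard errors, and p-values are from limma after Benjamini-Hochberg adjustment over all tested probe sets of a table, called below 0.05. Shares over all tested probe sets, given beside the member counts, include probe sets without a gene symbol, whereas every member has one. Before the filter these were 1555 of 22626 on 430A and 7605 of 22411 on 430B.

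Most oocyte Fbxw genes are neighbours in the genome, and those of the block whose upstream windows could be compared are much alike there. RefSeq (GRCm38.p6) places 15 Fbxw genes in an unbroken block on chromosome 9, with 15 protein-coding genes in the block and 0 of them from another family. The block holds 9 of the 10 oocyte Fbxw members, and Fbxw17 lies on chromosome 13. RefSeq windows from 250 bases before to 50 after the gene start were matched for 48 of the 65 member genes, 6 of them in the block. The 15 pairs of these 6 windows were 87.9% to 95.9% identical over 255 to 298 aligned bases, whereas each against the Fbxw17 window gave 54.9% to 60.6% over 208 to 252 bases. Shown are the 250 bases before the start for the most alike pair, Fbxw14 and Fbxw19, the least alike pair, Fbxw16 and Fbxw24, and Fbxw17 for contrast. All are written 5′ to 3′ on the gene's strand, and capitals mark CAGCTG, a palindromic form of the E-box CANNTG.
Fbxw14 (minus strand, chr9:109287677-109287926): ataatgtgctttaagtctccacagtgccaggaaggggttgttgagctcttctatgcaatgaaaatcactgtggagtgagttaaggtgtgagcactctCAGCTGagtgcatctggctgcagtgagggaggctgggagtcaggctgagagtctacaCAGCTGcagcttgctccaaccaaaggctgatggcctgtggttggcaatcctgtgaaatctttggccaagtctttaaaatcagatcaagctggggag
Fbxw19 (minus strand, chr9:109495855-109496104): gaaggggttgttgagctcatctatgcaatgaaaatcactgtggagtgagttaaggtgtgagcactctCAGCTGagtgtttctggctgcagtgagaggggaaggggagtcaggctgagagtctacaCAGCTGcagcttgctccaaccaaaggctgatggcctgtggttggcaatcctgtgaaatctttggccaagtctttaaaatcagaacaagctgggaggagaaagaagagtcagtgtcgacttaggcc
Fbxw16 (minus strand, chr9:109449141-109449390): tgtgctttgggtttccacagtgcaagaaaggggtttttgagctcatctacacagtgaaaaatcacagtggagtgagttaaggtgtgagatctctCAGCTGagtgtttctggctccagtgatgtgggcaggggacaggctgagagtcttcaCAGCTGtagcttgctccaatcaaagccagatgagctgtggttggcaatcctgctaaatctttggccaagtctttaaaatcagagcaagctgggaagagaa
Fbxw24 (minus strand, chr9:109626060-109626309): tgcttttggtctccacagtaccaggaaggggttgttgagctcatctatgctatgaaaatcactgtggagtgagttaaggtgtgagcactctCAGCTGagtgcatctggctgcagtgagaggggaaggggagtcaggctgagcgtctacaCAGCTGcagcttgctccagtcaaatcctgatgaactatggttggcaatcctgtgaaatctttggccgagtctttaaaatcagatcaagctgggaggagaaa
Fbxw17 (plus strand, chr13:50417614-50417863): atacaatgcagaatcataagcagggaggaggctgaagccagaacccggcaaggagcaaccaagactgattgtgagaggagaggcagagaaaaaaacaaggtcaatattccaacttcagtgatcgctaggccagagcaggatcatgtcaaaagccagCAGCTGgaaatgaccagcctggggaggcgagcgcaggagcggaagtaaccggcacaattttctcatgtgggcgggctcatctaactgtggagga

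All 6 windows of the block held CAGCTG at 2 places, at 183 to 139 and 125 to 81 bases before the start. Of 32851 RefSeq windows of this length 16.3% held it at least at 1 place and 1.9% at 2 or more places, and 14 of the 48 member windows held it. Fbxw17 held it at 94 bases before the start. The wider CANNTG, searched on both strands and overlapping CAGCTG, was in 72.3% of all windows and 35 of 48 member windows. TAATTG was in 8.0% of all windows, 2 of 48 member windows and 0 of the 6, and TATAAA was in 13.6%, 0 of 48 and 0 of the 6. A match is a description of the letters and not a binding site. Near-identical neighbours can also share hybridisation to a probe set, so which of the block's genes a signal comes from is uncertain.

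From primordial to primary follicles, all 10 oocyte Fbxw genes rose, by a median of 2.87 on the log2 scale as deposited (range 0.88 to 4.40) and 2.81 unmixed (1.27 to 3.80). The median over all tested probe sets was -0.23 on 430B and -0.08 on 430A, and 12.0% and 26.5% of them rose as deposited. Oocyte markers moved at the same step, as 7 of 12 rose and 2 fell in either version, with a median of 0.69. Zar1 went from between 7116 and 13071 to between 45248 and 49612, Gdf9 from between 4238 and 6283 to between 25337 and 28478 and Oosp1 from between 1751 and 5452 to between 16179 and 18149. The summed signal of 11 oocyte markers on 430A was 83369 to 103697 in primordial and 142852 to 147476 in primary samples, and their part in the Fbxw values was not tested. Primordial oocytes had the lowest mean of all 5 stages for 10 of the 10 genes. In each of 33 other settings of the analysis the test called all 10 higher in primary oocytes. One of these kept primordial replicate 1 as the sole primordial array and assumed that it varies like the other stages, whose spread it used. This rise was known when the list was drawn up, so the count is a description and not independent support.

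Fbxw13 showed the largest difference. Its primordial signals were 168, 512, 795 and 947 in replicates 1 to 4 (861, 1428 and 1741 for replicates 2 to 4 unmixed), against 11929, 11645, 11039 and 11198 in primary oocytes. The change was 4.40 ± 0.28 as deposited (adjusted p = 6.6e-12) and 3.80 ± 0.38 unmixed (adjusted p = 4.6e-08). Every primary sample lay above every primordial sample, and replicate 1 was the lowest primordial sample. Fbxw19 had primordial signals of 1501, 2382, 1905 and 2251 and primary signals of 31956, 32895, 31834 and 31974. It rose by 4.00 ± 0.11 (adjusted p = 9.5e-19), or 3.71 ± 0.17 unmixed (adjusted p = 3.4e-14). The 4 primary samples of Fbxw19 differed little beside the gap to the primordial samples.

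Fbxw22 went from 2661, 3490, 3681 and 3872 to 30881, 31897, 30416 and 31520, a change of 3.19 ± 0.10 (2.91 ± 0.15 unmixed). Fbxw24 went from 5582, 7828, 5329 and 6013 to 53340, 56616, 53709 and 57465, a change of 3.17 ± 0.11 (3.05 ± 0.16 unmixed). Fbxw18 went from 5054, 5847, 5219 and 5680 to 41590, 41509, 42222 and 41095, a change of 2.93 ± 0.10 (2.82 ± 0.13 unmixed). In these 3 genes the groups were separated by a wide gap with little spread within either stage. Fbxw27 changed by 2.81 ± 0.10 in both versions, Fbxw14 by 2.66 ± 0.12 (2.72 ± 0.16 unmixed) and Fbxw16 by 2.56 ± 0.18 (2.05 ± 0.27 unmixed). Fbxw14, the only one of the 10 read on 430A, lay at 71, 69, 76 and 51 in primordial and at 566, 696, 555 and 543 in primary oocytes, so its primordial signals were below 100 and the size of its change depends on the 32 added. Primordial signals of Fbxw16 were 4011, 10205, 9024 and 9619, so replicate 1 was again the lowest.

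Fbxw21 and Fbxw17 changed least. Fbxw21 changed by 2.03 ± 0.12 (1.70 ± 0.17 unmixed), from 3521, 5742, 5054 and 5388 to 18185, 19346, 20473 and 21828. Fbxw17, the gene outside the block, went from 1561, 1380, 1263 and 1002 to 2724, 2259, 2119 and 2513, a change of 0.88 ± 0.13 (adjusted p = 6.3e-06) or 1.27 ± 0.22 unmixed (adjusted p = 1.2e-04). Its groups did not overlap either, yet its change was smaller than that of any of the 9 genes in the block in both versions, a difference between genes that was not tested. The adjusted p of the 10 genes lay between 9.5e-19 and 6.3e-06 as deposited.

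**Figure D1:**
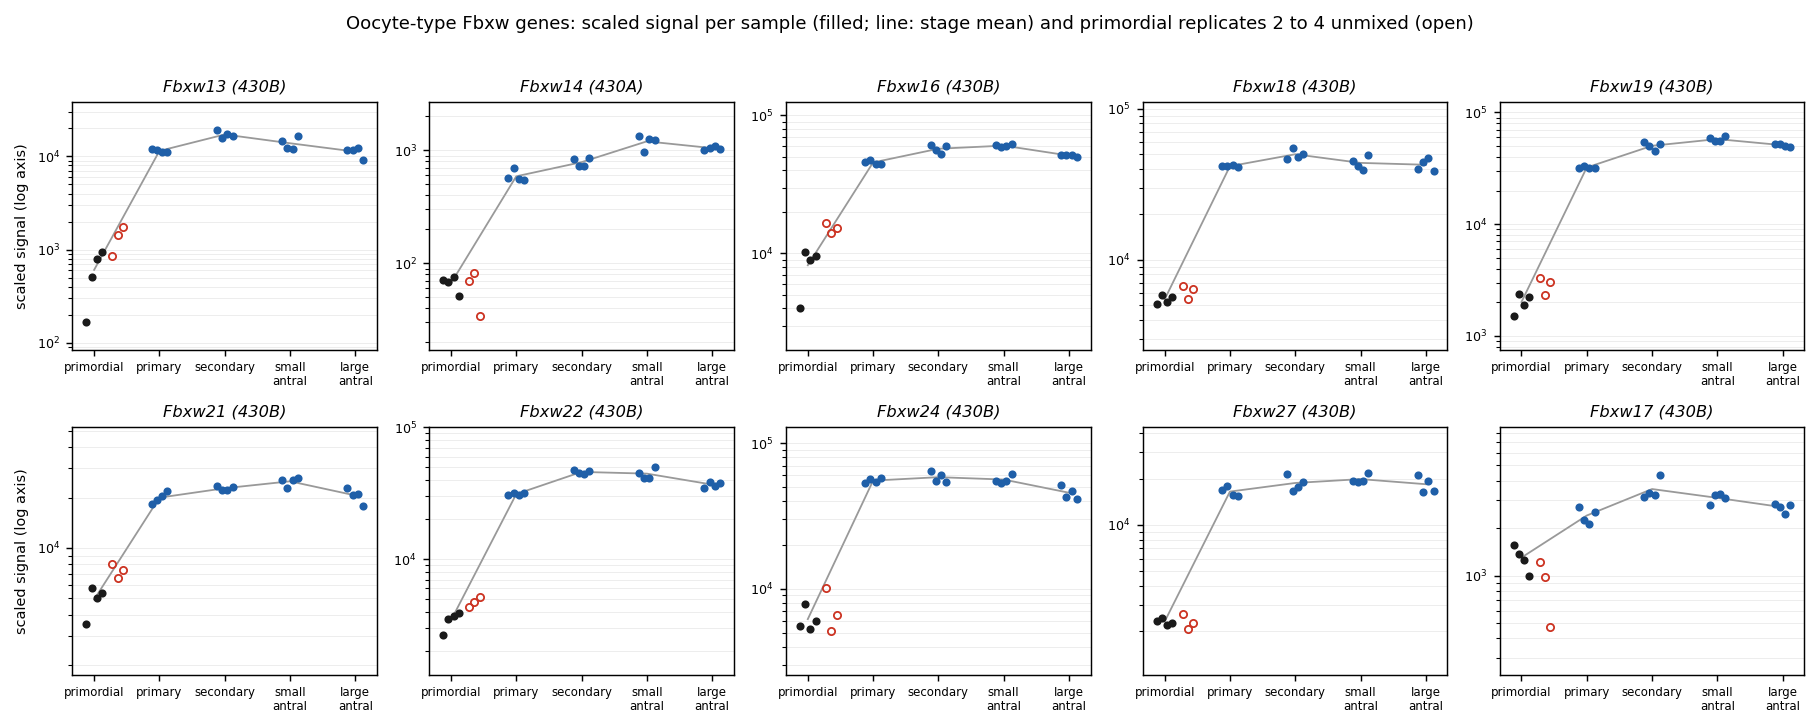
Scaled signal (log axis) of the 10 oocyte Fbxw genes in each sample of the 5 stages, with filled points for deposited values, a line through the stage means and open red points for unmixed primordial replicates 2 to 4. Every gene lies lowest in primordial oocytes, with Fbxw13 rising from between 168 and 947 to between 11039 and 11929, and stays high in the later stages.

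Within the growing stages these genes moved little. From primary to secondary follicles 6 of 10 rose and 0 fell, with a median change of 0.36 (limma; 8 rises and 0 falls at an unadjusted p below 0.05). Of all tested probe sets 3.31% rose on 430B, where 9 of the 10 are read, and 10.5% on 430A. Fbxw19 rose by 0.64 ± 0.08 (adjusted p = 1.1e-05) to 53881, 50430, 44840 and 52138, and Fbxw13 by 0.58 ± 0.11 (adjusted p = 0.0015) to 19018, 15891, 17222 and 16651. Fbxw22 rose by 0.56 ± 0.08, Fbxw17 by 0.55 ± 0.11, Fbxw14 by 0.40 ± 0.11 and Fbxw16 by 0.33 ± 0.07. The secondary samples of Fbxw13 and Fbxw19 lay above all their primary samples. The count fell to 1 rise in a fit of all 20 arrays with unmixed primordial values.

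Fbxw14 alone of the 10 rose again from secondary to small antral follicles, by 0.59 ± 0.11 (adjusted p = 8.8e-04), from 839, 727, 731 and 853 to 1333, 963, 1271 and 1247. It is also the only one read on 430A, where 6.81% of all tested probe sets rose at this step, against 2.05% on 430B. On 430B 3 small antral samples carry the age label of the secondary stage. A difference between Fbxw14 and the other genes cannot be told apart from the array and these labels. From small to large antral follicles 0 of the 10 were called in limma, and 6 had an unadjusted p below 0.05, all with a lower signal. Of all tested probe sets 0.398% rose and 1.16% fell on 430B, and 4.98% and 6.44% on 430A, so few calls were made on 430B at all. The changes at this step ran from -0.30 to -0.04 with a median of -0.22, beside medians of -0.00 (430B) and 0.01 (430A) over all tested probe sets. Oocyte markers moved at the same step, with 7 of 12 lower in large antral samples and 0 higher, and their part in the F-box values was not tested. From primary to large antral follicles Fbxw14 rose by 0.80 ± 0.11 (adjusted p = 6.8e-06) and Fbxw19 by 0.66 ± 0.08 (adjusted p = 1.3e-06). In that comparison 7.16% of all tested probe sets rose and 7.63% fell on 430B, and 19.6% and 21.6% on 430A. Fbxw22 rose by 0.24 ± 0.08 (adjusted p = 0.04) and Fbxw24 fell by 0.28 on the log2 scale (SE 0.09, adjusted p = 0.033). Both of these calls were lost with array medians set equal, without any 1 of the primary replicates (adjusted p of 0.066 to 0.1 for Fbxw22 and 0.05 to 0.091 for Fbxw24) and without large antral replicate 2 or 4. The Fbxw22 call was also lost without secondary replicate 4 or large antral replicate 3. The mean was highest in secondary follicles for 5 of the 10 genes and in small antral follicles for the other 5.

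Across all members, the step into the primary follicle went both ways. On 430B 22 of 51 tested probe sets rose as deposited, against 12.0% of all probe sets of that table, and 8 fell, against 19.7%. Unmixed these were 20, against 10.2%, and 6, against 12.4%. On 430A 11 of 44 were higher in primary oocytes, against 26.5% of all, and 18 lower, against 30.0%, which became 11, against 24.7%, and 16, against 25.6%, unmixed. The 430A share of rises was thus close to the background. Of the 10 oocyte Fbxw genes 9 are read on 430B, and the share of rises among the other 430B members was not counted. Counted by gene, 24 of 58 rose and 12 fell in both versions, and a further 3 fell as deposited alone. The 24 include the 10 oocyte Fbxw genes, and the rest come from the other families. Markers of other cells moved with this step too. Among 5 surface epithelium markers 3 fell and 1 rose as deposited (2 and 1 unmixed), with Lgals7 at 106 to 205 in primordial and 10.6 to 20.5 in primary samples, while the summed signal of the 4 on 430A overlapped (555 to 768 and 432 to 674). Of 5 theca and stroma markers 2 fell as deposited and 3 unmixed: the summed 430A signal of 5 of them was 1155 to 1630 in primordial and 651 to 976 in primary samples, with Dcn (decorin) at 219 to 368 and 20.5 to 53.9. Their part in the F-box changes was not tested. Scaling mattered to this split: the deposited values gave 33 probe sets higher and 26 lower in primary oocytes with the trimmed mean, and 37 and 19 with equal medians.

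**Figure D2:**
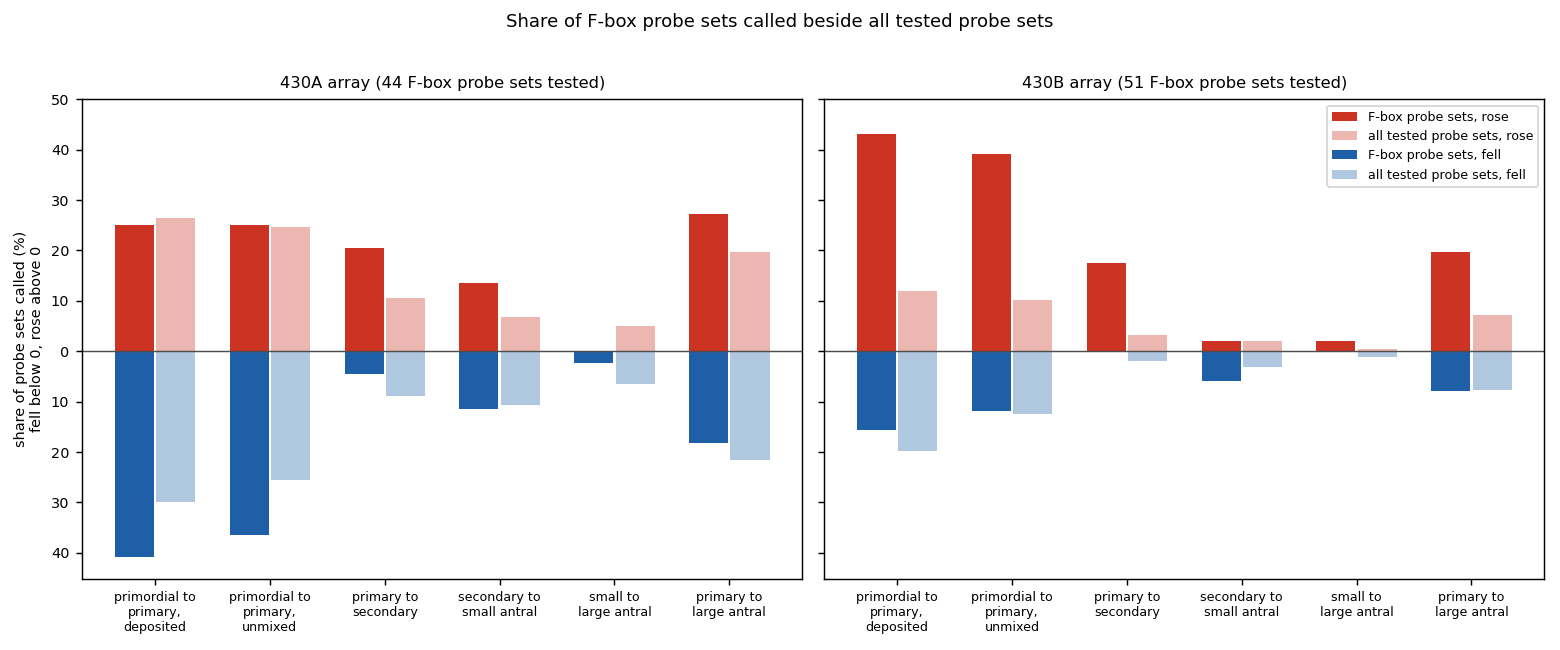
Share of tested F-box probe sets (dark bars, 44 on 430A and 51 on 430B) and of all tested probe sets (pale bars) that rose (above 0) or fell (below 0) at an adjusted p below 0.05 in each comparison. On 430B the F-box share of rises exceeds the pale bar from primordial to primary (43.1% against 12.0%) and from primary to secondary (17.6% against 3.31%), while on 430A the primordial to primary bars of rises are alike (25.0% against 26.5%).

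Among the 8 conserved Fbxw genes, 2 rose and 3 fell in both versions from primordial to primary. As deposited, 26.5% (430A) and 12.0% (430B) of all tested probe sets rose at this step, and 30.0% and 19.7% fell. Fbxw4 (dactylin), whose disruption causes limb malformation, rose at each of the first 3 steps. It lay at 259, 243, 259 and 311 in primordial, 976, 1144, 1094 and 1051 in primary and 2595, 2639, 2613 and 2776 in secondary oocytes. Small antral samples had 3189, 3428, 3884 and 3429, and large antral samples 3906, 3297, 3671 and 4263. No sample overlapped with the stage before it until the antral stages, which overlapped. The changes were 1.88 ± 0.10 (adjusted p = 7.4e-14), or 1.81 ± 0.13 unmixed (adjusted p = 2.4e-10), then 1.29 ± 0.09 (adjusted p = 4.3e-09) and 0.38 ± 0.09 (adjusted p = 0.004). From primary to large antral follicles it rose by 1.79 ± 0.09 (adjusted p = 4.3e-12), the largest rise among the conserved Fbxw genes. Fbxw8, which pairs with the cullin Cul7, rose by 0.77 ± 0.14 into the primary stage (1.47 ± 0.24 unmixed).

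Fbxw7, which marks cyclin E, Myc and Notch proteins for degradation, moved the other way. Its signals were 1153, 1368, 1516 and 1550 in primordial oocytes and 684, 656, 503 and 699 in primary oocytes, a fall of 1.10 on the log2 scale (SE 0.19, adjusted p = 2.8e-05), or 1.34 unmixed (adjusted p = 3.1e-05). Secondary samples had 213, 517, 519 and 417, small antral samples 312, 296, 392 and 301, and large antral samples 344, 260, 255 and 338. Its change from primary to large antral follicles was -1.01 ± 0.20 (adjusted p = 4.3e-04), with no overlap between the groups. The step from primary to secondary (-0.63 ± 0.20, adjusted p = 0.034) had overlapping groups and was -0.37 without secondary replicate 1 (adjusted p = 0.11). That call was also lost without primary replicate 1, 2 or 4 or secondary replicate 4, at adjusted p of 0.056 to 0.085. A second tested probe set of Fbxw7 changed by -0.77 ± 0.13, -0.48 ± 0.14 and -0.57 ± 0.14 in the same 3 comparisons, called in each.

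Fbxw11 (beta-TrCP2) recognises phosphorylated substrates such as beta-catenin. Primordial signals were 5551, 8660, 7993 and 8751 (12119, 10659 and 12409 for replicates 2 to 4 unmixed) and primary signals 4464, 4792, 4971 and 4838. It fell by 0.67 on the log2 scale (SE 0.12, adjusted p = 5.8e-05), or by 1.02 unmixed (adjusted p = 7.5e-05). From small antral (4680, 3490, 3828 and 4274) to large antral oocytes (2534, 3207, 3198 and 3379) it fell by 0.40 (SE 0.10, adjusted p = 0.012), and the groups did not overlap. The change from secondary to small antral, -0.30 ± 0.10 (adjusted p = 0.037), lost its call without secondary replicate 1, 2 or 4 or small antral replicate 2 or 3, at adjusted p of 0.053 to 0.14. Fbxw11 had 3 further tested probe sets, of which 2 also fell from primordial to primary. None of the 3 was called from small to large antral in limma, at changes of 0.07, 0.12 and -0.19.

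Fbxw5 went from 248, 185, 238 and 286 in primary to 119, 107, 125 and 141 in large antral oocytes, a fall of 0.80 (SE 0.23, adjusted p = 0.0073). Fbxw10 also fell into the primary stage (-1.42 ± 0.39 as deposited, -1.63 ± 0.43 unmixed), with overlapping groups. Fbxw2 was called lower in primary oocytes as deposited (-0.52 ± 0.18) and not unmixed, where its change was 0.53 ± 0.41. Fbxw9 was called in none of the 5 comparisons.

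Of 13 Fbxl genes 4 rose and 2 fell in both versions from primordial to primary, where 12.0% (430B) to 26.5% (430A) of all tested probe sets rose and 19.7% to 30.0% fell as deposited. Fbxl14, which binds the transcription factor Snail, rose from 951, 955, 761 and 822 to 2013, 2250, 1875 and 1883. This change was 1.17 ± 0.12 (adjusted p = 8.8e-09), or 1.29 ± 0.15 unmixed, and the groups did not overlap. It then fell over growth, to 1133, 1106, 1264 and 1145 in large antral oocytes, by 0.77 from the primary stage (SE 0.12, adjusted p = 1.9e-05). Fbxl6, named after its values were seen, rose by 2.17 ± 0.11 (2.63 ± 0.19 unmixed) from a mean of 142 to 749 and by a further 0.69 ± 0.09 to the secondary stage. Fbxl12 and Fbxl2 rose by 0.65 ± 0.13 and 0.39 ± 0.14 (1.19 ± 0.22 and 0.62 ± 0.22 unmixed).

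Fbxl17, which takes part in the quality control of BTB protein dimers, fell and then rose. Its primordial signals were 3393, 2599, 2711 and 2615 and its primary signals 1658, 1736, 1577 and 1539. The change was -0.78 ± 0.10 as deposited (adjusted p = 1.9e-06) and -0.45 ± 0.15 unmixed (adjusted p = 0.032), where the unmixed call was lost with array medians set equal. Secondary samples reached 3130, 2829, 2905 and 2741, small antral samples 5662, 4417, 4820 and 5820 and large antral samples 6013, 5710, 5557 and 5476. Each of the first 2 growing steps was a rise of 0.82 ± 0.09 (adjusted p of 8.5e-06 and 8.6e-06) with no overlap, and the antral stages overlapped. Over growth it rose by 1.79 ± 0.09 (adjusted p = 2.1e-11). Another tested Fbxl17 probe set was called in none of the 5 comparisons and changed by 0.61 ± 0.42 over growth.

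Fbxl21 fell by 1.19 into the primary stage (SE 0.24, adjusted p = 4.4e-04), or by 1.02 unmixed (adjusted p = 0.0066), from 792, 654, 656 and 743 to 353, 210, 386 and 257. Unmixed with array medians set equal that call was lost (-0.69, adjusted p = 0.084). Fbxl5, which senses iron and removes the iron regulatory protein IRP2, had 6652, 4987, 5199 and 5285 in primordial and 3988, 4132, 3587 and 5017 in primary oocytes. The groups overlapped, and its change of -0.40 ± 0.13 (adjusted p = 0.016) was -0.06 ± 0.17 unmixed (adjusted p = 0.83). Fbxl18 fell from secondary to small antral follicles by 0.76 (SE 0.19, adjusted p = 0.019), a call lost without secondary replicate 3 or 4 or small antral replicate 1 or 2. Without the 3 small antral samples of the other age label, which leaves 1 small antral array on 430B, the change was -1.07 (adjusted p = 0.072). Fbxl4 fell over growth by 0.40 (SE 0.12).

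**Figure D3:**
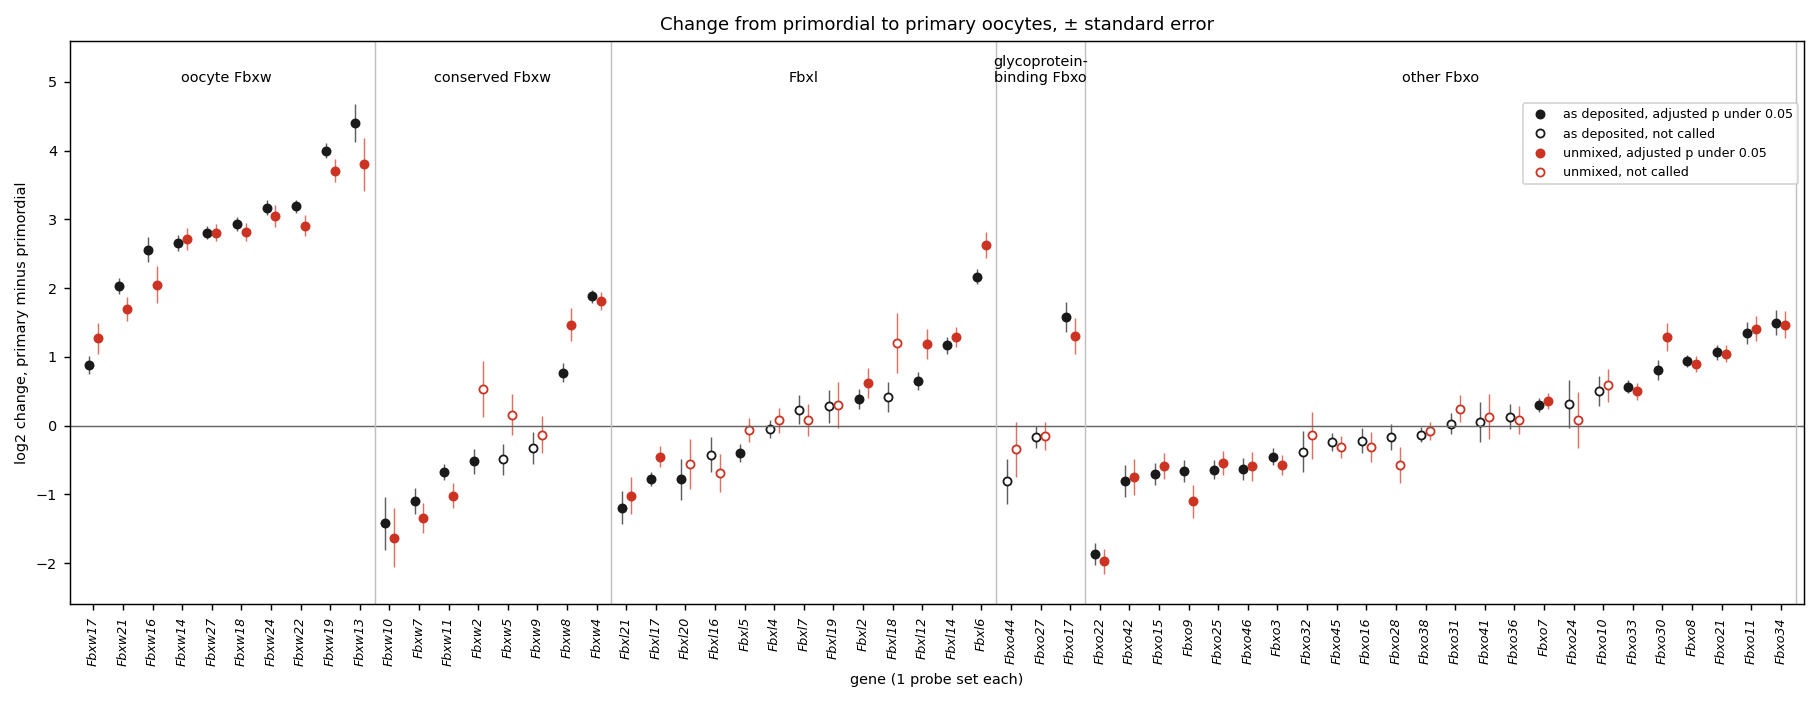
Log2 change of (signal + 32) from primordial to primary oocytes with its standard error for the 58 F-box genes with a tested probe set, by family, as deposited (black) and unmixed (red); filled points passed an adjusted p of 0.05. The 10 oocyte Fbxw genes lie between 0.88 and 4.40 as deposited, and the other families spread on both sides of 0, down to -1.86 for Fbxo22.

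In the glycoprotein-binding branch 1 of 3 genes changed. Of all tested probe sets 26.5% (430A) and 12.0% (430B) rose from primordial to primary as deposited, and 10.5% and 3.31% from primary to secondary. Fbxo17, named after its values were seen, had primordial signals of 8.93, 19.0, 20.0 and 44.3 and primary signals of 181, 157, 155 and 56.9. The test called it higher in primary oocytes in both versions (1.58 ± 0.22, or 1.30 ± 0.26 unmixed), and the unmixed groups overlapped. Its primordial signals were below 100 and near the 32 added, so the size of this change is set largely by that amount. It rose to the secondary stage by 0.59 ± 0.20 (adjusted p = 0.047), at 220, 210, 199 and 211. Fbxo27 and Fbxo44 were called in none of the 5 comparisons by the probe sets that represent them, while a second Fbxo27 probe set fell into the primary stage (-1.65 ± 0.46, or -1.49 ± 0.53 unmixed).

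Among the 24 other Fbxo genes, read on both arrays, 7 rose and 7 fell in both versions from primordial to primary. Over all tested probe sets 26.5% (430A) and 12.0% (430B) rose as deposited, and 30.0% and 19.7% fell. Unmixed, 24.7% and 10.2% rose, and 25.6% and 12.4% fell. Fbxo34, reported to act in the meiotic maturation of oocytes, rose from 2832, 3239, 2965 and 2494 to 7585, 8833, 6707 and 9915, by 1.50 ± 0.18 (adjusted p = 4.6e-07) or 1.47 ± 0.20 unmixed (adjusted p = 5.5e-06). Among the probe sets that represent the genes of this group, it was the largest rise into the primary stage. A 430B probe set of Fbxo28, which does not represent its gene, rose by more. Secondary samples had 9060, 11158, 15424 and 9270, small antral samples 10615, 21274, 17117 and 11425, and large antral samples 24709, 24582, 26238 and 24302. The 4 large antral samples agreed closely and lay above all others, while the small antral samples were widely spread, with replicates 1 and 4 low and replicates 2 and 3 high. Over growth it rose by 1.61 ± 0.19 (adjusted p = 1.7e-06). The step from small to large antral was 0.78 ± 0.19 (adjusted p = 0.038), and that call was lost without small antral replicate 1 or 4 or any large antral replicate, at adjusted p of 0.071 to 0.15.

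Fbxo11, whose substrates include the repressor BCL6, rose by 1.35 ± 0.16 (adjusted p = 1e-07; 1.41 ± 0.18 unmixed), from 339, 355, 295 and 293 to 786, 968, 821 and 903. No later step of Fbxo11 was called. Fbxo30, known in muscle wasting as MUSA1, had primordial signals of 1474, 1134, 1024 and 1044 and primary signals of 1920, 2028, 2114 and 2175. It rose by 0.81 ± 0.14 (adjusted p = 5.5e-05), or 1.29 ± 0.20 unmixed, then by 0.55 ± 0.13 to the secondary stage (adjusted p = 0.012). Large antral samples reached 3715, 4816, 5644 and 3584, which made 1.07 ± 0.13 over growth (adjusted p = 2.5e-06). Of its 4 tested probe sets, 3 rose into the primary stage and 3 over growth, though not the same 3.

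Fbxo33 rose by 0.57 ± 0.10 into the primary stage (0.50 ± 0.12 unmixed) and by 0.80 ± 0.10 to the secondary stage (adjusted p = 8.3e-06), where its signals were 1416, 1610, 1680 and 1726 against 951, 942, 866 and 868 before. Fbxo8, which carries a Sec7 domain and was named after its values were seen, rose at the same first 3 steps as Fbxw4. Its changes were 0.94 ± 0.09 (0.90 ± 0.12 unmixed), 0.60 ± 0.09 and 0.50 ± 0.09, from a mean of 725 in primordial to 3333 in large antral oocytes. Fbxo21 rose by 1.07 ± 0.11 (1.05 ± 0.13 unmixed). Fbxo7, mutated in a hereditary parkinsonism, rose by 0.30 ± 0.10 (adjusted p = 0.023; 0.36 ± 0.12 unmixed, adjusted p = 0.034), a call lost with quantile normalization, at a change of 0.04, and without primordial replicate 2 or primary replicate 1 or 3.

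Fbxo22, which acts on the histone demethylase KDM4A, showed the largest fall of all F-box genes into the primary stage. Its signals were 723, 814, 836 and 711 in primordial and 133, 206, 202 and 230 in primary oocytes, and the changes were -1.86 ± 0.16 (adjusted p = 6.4e-10) and -1.97 ± 0.18 unmixed (adjusted p = 1.1e-08). It then stayed between 117 and 241 in every growing sample, and no later step was called. Of 2 further tested Fbxo22 probe sets, 1 was not called in either version and 1 fell unmixed alone. Fbxo42, which binds p53, fell by 0.80 (SE 0.23; 0.75 unmixed) on its 430A probe set, from 142, 133, 111 and 152 to 23.5, 72.1, 102 and 73.4, and the unmixed groups overlapped. The unmixed call was lost with array weights (adjusted p = 0.17) and with array medians set equal (adjusted p = 0.07). Neither of its 2 tested 430B probe sets was called at this step (0.04 ± 0.25 and -0.15 ± 0.26 as deposited).

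Fbxo15, a target of the pluripotency factor Oct4, fell into the primary stage and rose later. Its signals were 256, 218, 255 and 204 in primordial and 172, 108, 127 and 123 in primary oocytes (-0.70 ± 0.16, adjusted p = 6.9e-04; -0.59 ± 0.19 unmixed, where the groups overlapped). The unmixed call was lost with array weights (adjusted p = 0.1) and with array medians set equal (-0.41, adjusted p = 0.064). Secondary samples had 178, 117, 123 and 158 and small antral samples 333, 268, 398 and 357, a rise of 1.08 ± 0.17 with no overlap (adjusted p = 1.2e-04). Large antral samples had 395, 469, 371 and 541, and the rise over growth was 1.53 ± 0.17 (adjusted p = 3.4e-07). Fbxo3 followed a like course, with a fall of 0.45 (SE 0.12; 0.57 unmixed), a rise of 0.55 ± 0.13 from secondary to small antral (adjusted p = 0.0047) and one of 1.01 ± 0.13 over growth (adjusted p = 2.3e-06). The Fbxo3 fall was lost with array medians set equal (-0.30, adjusted p = 0.07). Of 4 tested Fbxo3 probe sets 2 were called in each of these 3 comparisons, in the same direction.

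Fbxo25, a close relative of Fbxo32, went down, up and down again. Its means were 505 in primordial, 313 in primary, 529 in secondary, 350 in small antral and 256 in large antral oocytes. The changes were -0.64 ± 0.14 (-0.54 ± 0.17 unmixed), 0.71 ± 0.15 (adjusted p = 0.0021) and -0.57 ± 0.15 (adjusted p = 0.0098), and the last, -0.39 ± 0.15, was not called. The first was lost unmixed with array weights (adjusted p = 0.081) and with array medians set equal (-0.35, adjusted p = 0.12). Fbxo32 (atrogin-1), a muscle atrophy gene, stayed between 24.1 and 178 in all samples and was not called in any comparison. Fbxo45, which works with the RING protein PHR1 in place of Cul1, had 701, 523, 540 and 521 in primary, 477, 532, 589 and 448 in secondary and 293, 271, 246 and 381 in small antral oocytes. It fell by 0.73 at the second of these steps (SE 0.14, adjusted p = 8.9e-04) and reached 228, 229, 228 and 265 in large antral oocytes, a fall of 1.15 over growth (SE 0.14, adjusted p = 1.2e-06). Fbxo45 had 2 tested probe sets, and only 1 was called in each of these 2 comparisons.

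**Figure D4:**
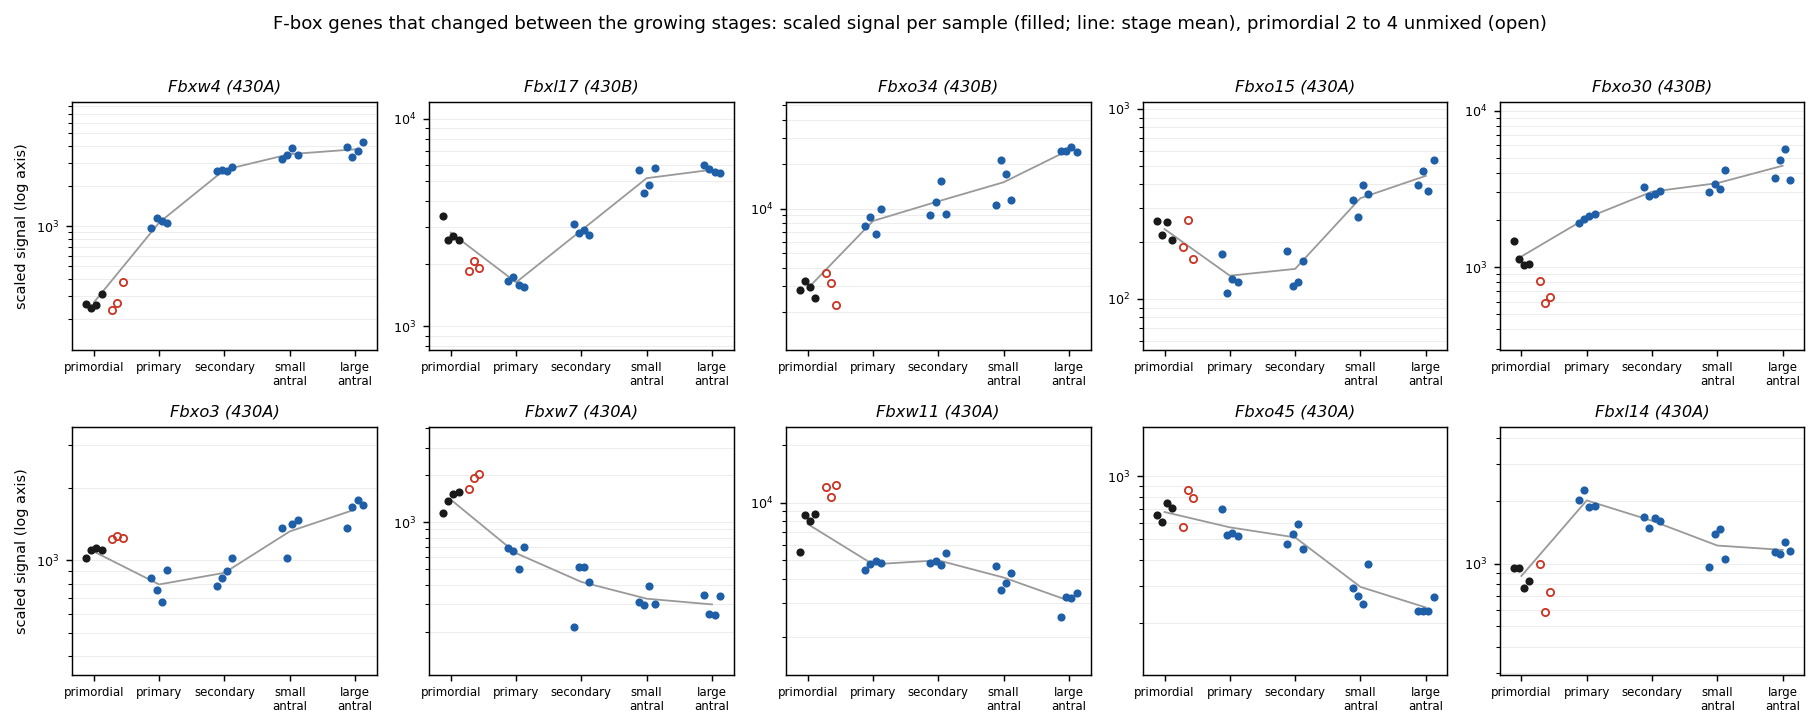
Scaled signal (log axis) in each sample of the 5 stages for 10 F-box genes that changed between growing stages, with filled points for deposited values, a line through the stage means and open red points for unmixed primordial replicates 2 to 4. Fbxw4, Fbxl17, Fbxo34, Fbxo15, Fbxo30 and Fbxo3 rise over growth, and Fbxw7, Fbxw11, Fbxo45 and Fbxl14 decline.

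Counts over all members at the later steps were smaller. From primary to secondary follicles 9 of 44 probe sets rose on 430A, against 10.5% of all, and 2 fell, against 8.89%. On 430B 9 of 51 rose, against 3.31%, and 0 fell, against 1.94% (limma; 3 falls at an unadjusted p below 0.05). The median change of the 51 was 0.04, beside -0.03 over all. By gene 14 of 58 rose and 1 fell, and the rises were 6 oocyte Fbxw, 1 conserved Fbxw, 2 Fbxl, 1 glycoprotein-binding and 4 other Fbxo genes.

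From secondary to small antral follicles 6 of 44 rose on 430A, against 6.81%, and 5 fell, against 10.6%. On 430B 1 of 51 rose, against 2.05%, and 3 fell, against 3.09%. The member shares were 13.6% and 11.4% on 430A and 1.96% and 5.88% on 430B, so the rises on 430A and the falls on 430B were above the background share and the others close to it, differences that were not tested. From small to large antral follicles 0 of 44 rose on 430A, against 4.98%, and 1 fell, against 6.44% (limma; 7 rises at an unadjusted p below 0.05). On 430B 1 of 51 rose, against 0.398%, and 0 fell, against 1.16% (7 falls at an unadjusted p below 0.05). The 2 calls were Fbxo34 and Fbxw11.

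From primary to large antral follicles 12 of 44 rose on 430A, against 19.6%, and 8 fell, against 21.6%. On 430B 10 of 51 rose, against 7.16%, and 4 fell, against 7.63%. By gene 14 of 58 rose and 8 fell, with a median change of 0.16. Granulosa markers moved with this comparison, as 4 of 12 tested rose and 0 fell (limma; 0 falls at an unadjusted p below 0.05 too). Gja1, the gap junction gene connexin 43, went from between 42.3 and 97.2 in primary to between 769 and 861 in large antral samples, and Inha from between 193 and 286 to between 508 and 641. On 430B the summed signal of 4 further granulosa markers was 2392 to 3806 in primary and 2386 to 3108 in large antral samples, which overlapped. The part of these cells in the F-box changes was not tested.

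Of the 58 genes, 29 had their lowest mean in primordial oocytes and 19 their highest. The means are of deposited primordial values, and the same counts over all tested probe sets were not made. Among the 8 conserved Fbxw genes 6 were highest in primordial oocytes and 4 lowest in large antral oocytes, whereas 0 of the 10 oocyte Fbxw genes were highest in either. The 6 include Fbxw2, whose change into the primary stage had the other sign unmixed. In the other Fbxo group 8 of 24 were highest in large antral oocytes and 6 in primordial oocytes.

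Probe sets of a gene did not always move together. With several tested probe sets for 22 genes, no gene had called probe sets in opposite directions, where a call from primordial to primary had to hold in both versions. From primordial to primary, however, 16 of the 22 had some probe sets called and others not, and 2 had all called the same way. Fbxo28, named after its values were seen, is an example: the 430A probe set that represents it changed by -0.16 ± 0.19 (-0.57 ± 0.26 unmixed), while its 2 tested 430B probe sets rose by 1.82 ± 0.12 and 1.13 ± 0.11 (1.96 ± 0.15 and 1.12 ± 0.14 unmixed). In the deposited values alone Fbxl20 did go both ways, with its 430A probe set called at -0.78 ± 0.30 and 2 of its 430B probe sets at 1.24 ± 0.08 and 0.58 ± 0.18. Unmixed, the call of 1.14 ± 0.11 for the first of these 430B probe sets was the only one left.

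The rest of the SCF machinery was followed with lists of its parts, most of them read on 430A, where 19.6% of all tested probe sets rose and 21.6% fell over growth (7.16% and 7.63% on 430B). From primordial to primary as deposited, 26.5% rose and 30.0% fell on 430A, and 12.0% and 19.7% on 430B. Unmixed these were 24.7% and 25.6%, and 10.2% and 12.4%. Among 4 genes of the SCF core, Cul1, the scaffold, rose into the primary stage by 1.71 ± 0.07 in both versions (SE 0.08 unmixed), from a mean of 1883 to 6243, and by a further 0.21 ± 0.06 to the secondary stage. Skp1, the adaptor that binds the F-box, had means of 10609, 11503, 12125, 13391 and 9375 in stage order. It was not called into the primary stage and fell from small to large antral by 0.52 (SE 0.08, adjusted p = 2.4e-04). Rnf7, the RING subunit used mainly with Cul5, fell at the first 3 steps, by 1.43 (1.67 unmixed), 0.95 and 1.07, from a mean of 4436 to 385. Rbx1, the RING subunit used with Cul1, was called higher in primary oocytes as deposited (1.54 ± 0.52, adjusted p = 0.025) and not unmixed (1.42 ± 0.54, adjusted p = 0.062).

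Of 6 F-box proteins with other symbols, 4 rose over growth and 0 fell (limma; 0 falls at an unadjusted p below 0.05), with a median of 0.66. Kdm2b, a histone demethylase with an F-box, rose by 1.11 ± 0.12. Btrc, which encodes beta-TrCP1 where Fbxw11 encodes beta-TrCP2, rose by 0.83 ± 0.12. Skp2, which removes the cell cycle inhibitor p27, fell by 0.80 (SE 0.16; 1.23 unmixed) into the primary stage and rose by 0.82 ± 0.11 over growth. Btrc rose into the primary stage by 1.46 ± 0.13 (1.75 ± 0.20 unmixed), at the step where Fbxw11 fell.

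Among 9 neddylation genes 1 rose and 3 fell over growth. Dcun1d3, a co-factor of cullin neddylation, went from a mean of 1375 in primary to 861 in secondary, 159 in small antral and 112 in large antral oocytes, a change of -3.29 ± 0.22 (adjusted p = 4.1e-10), larger than any F-box change between growing stages. Ube2f, an E2 for Nedd8, fell by 1.13 (SE 0.10). In a list of 7 E2 enzymes and Arih1, an E3 ligase that works with SCF, 2 rose and 2 fell over growth, with Ube2d2a at 0.57 and Arih1 at 0.49 among the rises and Ube2r2 at -0.99 ± 0.13 among the falls. Among 10 COP9 signalosome genes, whose product takes Nedd8 off, 2 rose and 1 fell, and Cops2 rose by 1.26 ± 0.12. Of 6 assembly factors 2 rose and 1 fell, and Cand1, which swaps F-box subunits on Cul1, rose by 0.84 ± 0.12. Of 6 other cullins 1 rose and 1 fell over growth, Cul4a falling by 1.66 (SE 0.19), and Cul2, Cul3 and Cul5 fell into the primary stage in both versions, Cul3 by 1.60 (1.53 unmixed).

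**Figure D5:**
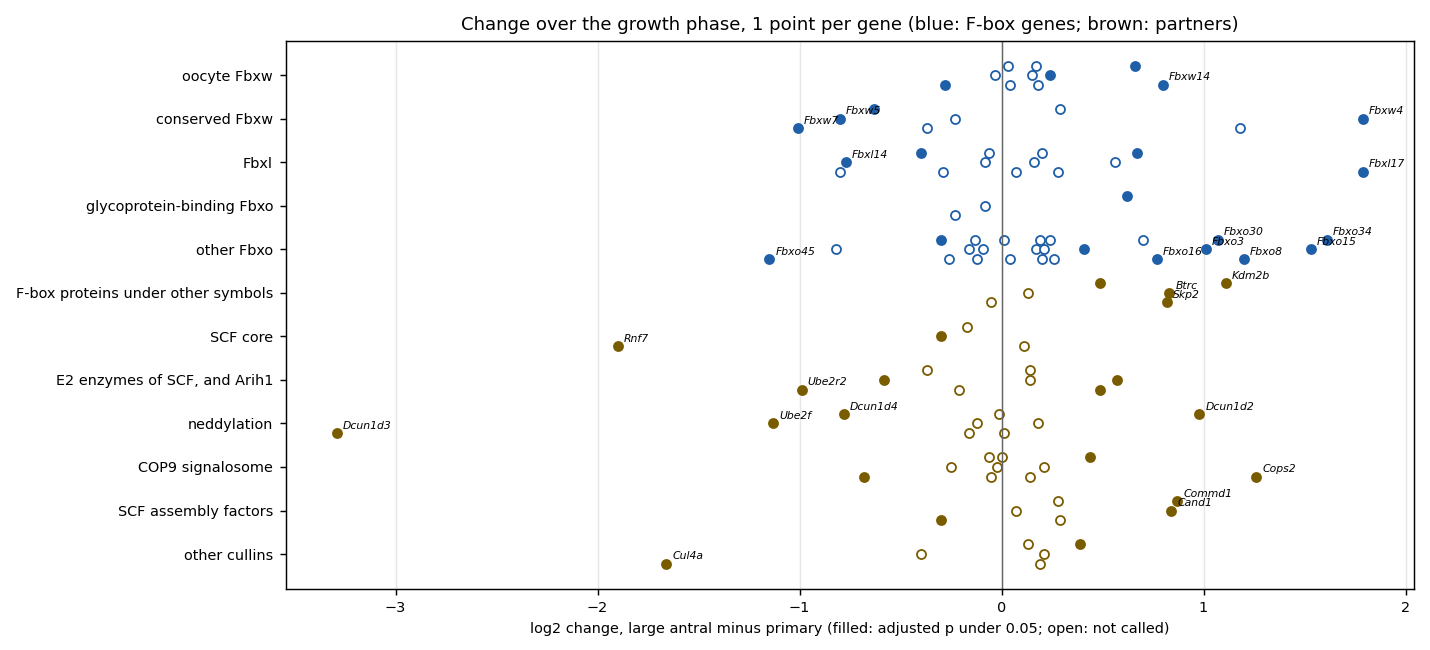
Log2 change of (signal + 32) from primary to large antral oocytes, 1 point per gene, for the 5 F-box families (blue) and 7 lists of SCF partners and other cullins (brown), filled where the adjusted p was below 0.05 and with called genes of at least 0.75 in size named. F-box genes run from -1.15 (Fbxo45) to 1.79 (Fbxw4 and Fbxl17), and Dcun1d3 is the lowest point at -3.29.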

How the data were processed

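The authors deposited 1 table of signal intensities for each array type, made with MAS5 per the submitters' processing notes, with the version not given in the sources used here. RNA was amplified and labelled as biotinylated cRNA per the labels' protocols. Every sample column matched a sample, and 64 control probe sets per table were left out. Signals of an array were multiplied to give a 2% trimmed mean of 500, and log2 of (signal + 32) was analysed. Probe sets with a signal of at least 100 on at least 4 of 20 arrays were tested (15845 on 430A, 19115 on 430B) with limma 3.58.1 (R 4.3.3; lmFit, and eBayes with a trend), with Benjamini-Hochberg adjustment within a table and a threshold of 0.05. The step from primordial to primary used all 20 arrays (15 residual degrees of freedom), and the others the 16 of the growing stages (12). The number of arrays limits the precision.

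Same-numbered replicates were checked for pairing: correlations of their deviations ran from -0.08 to 0.132 (430A) and from -0.038 to 0.057 (430B), with 24 pairs per table, so no block was used. The titles of 4 secondary samples name no array type, and their columns were found in the 430A table. Gene symbols came from the platform annotation, and all 65 matched RefSeq. Promoter windows were aligned with Biopython 1.88. Genes were named by rule: the 4 largest rises and 4 largest falls called without overlap in each comparison, all oocyte Fbxw genes and a short list of known F-box genes. Other genes named were chosen after their values were seen. The members and lists were chosen with earlier results of these data known. Alternatives covered scaling, the amount added, the filter, the samples in the fit, the variance model, a replicate block and leaving out each replicate.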

Additional observations from a re-analysis of the deposited data

Results flagged for a closer look

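Of 155 groups of 4 samples (31 named genes in 5 stages), 9 held a sample whose gap to its nearest neighbour, as a share of the group's range, was above Dixon's 95% critical value, and chance gives about 1 in 20. Fbxl17 in primordial replicate 1 had a gap of 0.858 of the range, at 3392.5 against 2598.6 to 2711.4 in the others. Fbxw5 in the same sample had 0.831, at 472.4 against 299.6 to 328.9. Deposited primordial replicates 2 to 4 have the form of means with replicate 1, so these 4 values are not independent. Fbxo45 had a gap of 0.898 in primary replicate 1 (701.1 against 521.2 to 539.6) and of 0.971 in large antral replicate 4 (265.2 against 227.9 to 229.0). In primary replicate 2, Fbxw14 had 0.850 (695.5 against 543.4 to 566.2) and Fbxw19 had 0.868 (32894.7 against 31834.0 to 31973.9). Fbxw17 had 0.833 in secondary replicate 4 (4365.4 against 3158.7 to 3360.2). Fbxw27 had 0.866 in small antral replicate 4 (21818.7 against 19048.7 to 19420.2), and Fbxw7 had 0.835 in small antral replicate 3 (392.2 against 296.0 to 311.9).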

How the results depend on the processing

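The test called 59 of 95 member probe sets from primordial to primary, 20 from primary to secondary, 15 from secondary to small antral, 2 from small to large antral and 34 from primary to large antral. With all 20 arrays and unmixed primordial values the 3 middle counts were 9, 9 and 0. The count from small to large antral was 1 with array medians set equal, with no filter, with only the 2 stages compared and with no mean-variance trend, 4 with the stricter filter, and 1 to 4 with a replicate left out. With the replicate block the 5 counts were 59, 17, 15, 3 and 32. From primordial to primary, unmixed values gave 53 calls, 43 with array weights and 48 with array medians set equal. Replicate 1 as the sole primordial array, an alternative chosen after seeing the data, gave 45. Without the 3 small antral 430B samples of the other age label the counts into and out of that stage were 12 and 3. Over the named genes, 67 of 155 gene comparisons were called; among 4423 alternative values 4289 kept direction and side of the threshold, 106 lost a call, 27 gained one and 1 reversed. That reversal was Fbxl5 from primordial to primary, 0.291 (limma, adjusted p = 0.32) unmixed with array medians set equal. Apart from the effects of fewer samples or probe sets, the cause was not tested. Signals near background, such as those of Fbxo42 and Fbxo32, limit what could be detected.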
